A study of Mus musculus with 6 samples.

Results

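Expression of 10 heat shock genes was followed in mouse embryonic fibroblasts in which Ube2o was knocked down: the small heat shock protein genes Hspb1, Hspb2, Hspb6, Hspb7, Hspb8 and Cryab, the co-chaperone gene Bag3, the inducible HSP70 genes Hspa1a and Hspa1b, and Hsf1, which encodes the transcription factor of the heat shock response. Members were taken by gene symbol from the platform annotation, and all 10 had a probe, with 15 of the 45281 probes on the array and 10 of 20289 gene symbols. The gene set was proposed after the large difference in Hspb8 between the shRNA groups was known, so the differences of the members are given as a description, without p-values. All cells were fibroblasts (MEFs) from C57BL6 embryos at day 13.5, and all stably expressed a short hairpin RNA (shRNA), directed at GFP in the control group (3 arrays) and at Ube2o in the other (3 arrays). The Ube2o arrays carry the same hairpin name in the labels, 1 label field calls it an siRNA, and the submitters describe independent MEFs for each shRNA, with the embryo of origin not stated in the labels. Loss of Ube2o therefore cannot be told apart from other effects of the hairpin or from differences between the MEFs. UBE2O joins the roles of ubiquitin-conjugating enzyme and ligase in 1 large protein and marks misplaced or unassembled proteins for degradation. RNA was measured on single-colour Illumina BeadChips, and the submitters asked which genes respond to loss of UBE2O.

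Small heat shock proteins are chaperones without ATPase activity that share an alpha-crystallin domain, assemble into oligomers and hold unfolding proteins in a soluble state. HSPB8 is bound by BAG3, which also binds HSP70, and the complex hands misfolded proteins to the ubiquitin ligase CHIP and to autophagy, a route known as chaperone-assisted selective autophagy. HSF1 drives heat-inducible chaperone genes by binding heat shock elements, inverted repeats of GAA and TTC, in their promoters. Several small heat shock proteins are best known from muscle, where they protect actin and desmin filaments.

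The 250 bases upstream of the annotated starts are shown for the member whose signal differed most (Hspb8), for its partner Bag3, and for members with heat shock element letters (Hspb1, the second start of Hspb6, and Hspa1b). The promoter set used here, on build GRCm38.p6, held an entry for 7 of the 10 genes (Hspb1, Hspb6, Hspb7, Hspb8, Bag3, Hspa1a and Hspa1b) and 8 starts. All 10 genes have a RefSeq locus, so a missing entry is a limit of that set. Each sequence is written 5′ to 3′ on the strand of its gene, and capitals mark the pair GAANNTTC. The windows lie at chr5:116422865-116423114 (minus strand), chr7:128523333-128523582 (plus strand), chr5:135887669-135887918 (plus strand), chr7:30553051-30553300 (plus strand) and chr17:34959239-34959488 (minus strand).
Hspb8: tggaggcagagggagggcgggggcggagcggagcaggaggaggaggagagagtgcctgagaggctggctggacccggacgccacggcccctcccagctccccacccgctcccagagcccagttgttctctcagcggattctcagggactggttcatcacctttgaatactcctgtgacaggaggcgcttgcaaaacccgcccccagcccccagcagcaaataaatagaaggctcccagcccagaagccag
Bag3: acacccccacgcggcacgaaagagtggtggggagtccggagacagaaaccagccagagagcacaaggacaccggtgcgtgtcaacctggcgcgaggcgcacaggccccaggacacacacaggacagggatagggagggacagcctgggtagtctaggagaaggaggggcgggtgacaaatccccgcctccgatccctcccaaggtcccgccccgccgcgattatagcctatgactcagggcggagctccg
Hspb1: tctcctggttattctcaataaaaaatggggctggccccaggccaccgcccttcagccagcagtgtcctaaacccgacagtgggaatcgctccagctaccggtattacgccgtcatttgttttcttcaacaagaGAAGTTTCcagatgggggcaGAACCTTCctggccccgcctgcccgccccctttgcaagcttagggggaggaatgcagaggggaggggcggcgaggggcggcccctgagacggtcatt
Hspb6: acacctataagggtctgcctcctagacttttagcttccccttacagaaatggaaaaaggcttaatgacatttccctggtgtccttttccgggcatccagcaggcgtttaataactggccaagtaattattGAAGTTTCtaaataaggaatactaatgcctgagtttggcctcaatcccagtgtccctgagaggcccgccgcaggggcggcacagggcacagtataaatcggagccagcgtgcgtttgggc
Hspa1b: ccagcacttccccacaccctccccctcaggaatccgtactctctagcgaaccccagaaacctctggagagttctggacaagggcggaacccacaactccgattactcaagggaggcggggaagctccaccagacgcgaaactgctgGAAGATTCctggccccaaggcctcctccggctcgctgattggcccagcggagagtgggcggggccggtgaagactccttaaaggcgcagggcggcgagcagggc

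The letters searched were GAANNTTC and TTCNNGAA, each its own reverse complement, so that both strands are covered. Hspb1 held GAANNTTC in 2 places, 117 to 110 and 97 to 90 bases upstream of the start, the window of the second Hspb6 start held it 120 to 113 bases upstream, and the Hspa1a and Hspa1b windows both held it 104 to 97 bases upstream. The last pair of windows differ in 3 of 250 bases. TTCNNGAA was in no member window. Among 32851 upstream windows of that length, 6.69% held GAANNTTC and 7.17% held TTCNNGAA and 12.8% held at least 1 of these. No match in the Hspb8 and Bag3 windows says only that these letters are not in the bases searched.

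**Figure D1:**
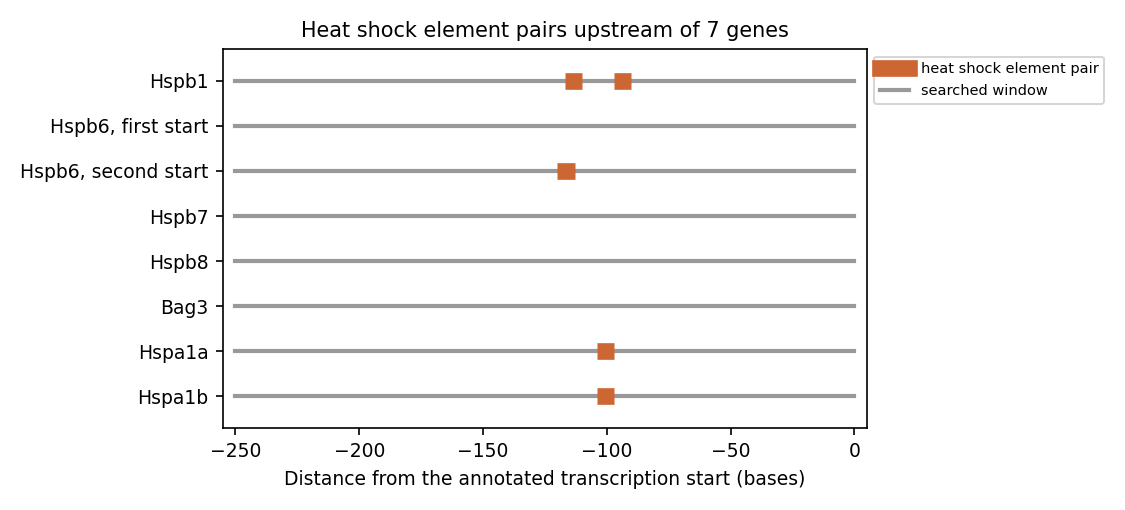
Positions of GAANNTTC (orange blocks, to scale) in the windows upstream of the annotated starts of 7 genes, with distance from the start in bases on the x axis. Hspb1 has 2 blocks, the second Hspb6 start, Hspa1a and Hspa1b have 1 each, and the windows of Hspb7, Hspb8, Bag3 and the first Hspb6 start have none.

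Ube2o, the targeted gene, was 2.74-fold lower with its shRNA (log2 change -1.45, SE 0.12, limma adjusted p = 3.15e-07). All 10 fibroblast markers lay above background on all 6 arrays, and 1 of them, Pdgfra, fell. Skeletal and cardiac muscle markers, of interest because several members are muscle proteins, were mostly dim: 1 of 9 measured lay above background on all arrays, Myod1, Myf5, Myh6, Myh3 and Actc1 did so on none, and Acta1 rose. The summed deposited intensity of the 9 was 1426 to 1572 with GFP shRNA and 1394 to 1594 with Ube2o shRNA, so the groups overlapped. With 5 of the 9 above background on no array, that sum is largely background and cannot show whether muscle content differed. Of 7 smooth muscle markers Tagln and Smtn rose and Des fell. Their sum, in which the brightest markers weigh most, was 37298 to 41407 with GFP shRNA and 36072 to 40855 with Ube2o shRNA. Of 4 measured nerve and glia markers Map2 rose, and their sum was 1057 to 1189 with GFP shRNA and 1183 to 1530 with Ube2o shRNA. Tubb3 and Sox10 were above background on no array, so this sum is partly background and cannot show whether nerve or glia content differed. The part of these marker changes in the results below was not tested. A probe was called above background when its signal stood out from the dim probes of its array at p under 0.05, which was so for 44.6% to 47.0% of probes. The lowest intensity called was 157 to 177 depending on the array, and precision is limited by having 3 arrays per group.

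Hspb8, the chaperone that partners BAG3, was about 10-fold lower with Ube2o shRNA. The brighter of its 2 probes gave deposited intensities of 1975, 2038 and 2194 in the GFP shRNA cells and only 229, 270 and 266 after knockdown of Ube2o. Every knockdown array lay far below every control array, and all 6 values were above background. After background correction and quantile normalization the mean log2 intensity of the 3 controls was 10.91 ± 0.034 (SD) and that of the 3 knockdown arrays 7.53 ± 0.060 (SD), and the difference was -3.38 (SE 0.040, 10.4-fold lower). For the members the SE comes only from the SDs of the probe's own arrays. For Ube2o and the other tested genes it is limma's SE, which also draws on the spread of other probes. The SEs of members and of tested genes are therefore not comparable. The ratio of the mean deposited intensities, background included, was 8.12. The difference ranked 5 from the lowest among 20289 genes by their brightest probe. Since the set was proposed with this difference known, nothing is read from the rank. In RNA from whole cultures, fewer cells expressing a gene and less RNA per cell cannot be told apart.

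The dimmer Hspb8 probe moved the same way. It gave 362, 440 and 493 with GFP shRNA and 146, 159 and 166 with Ube2o shRNA. The control values were above background on 3 of 3 arrays and the knockdown values on 0 of 3, so the size is a bound, at least 3.60-fold lower, against the lowest normalized signal that counted as above background on each array. The normalized means were 8.40 ± 0.17 and 6.36 ± 0.094 (SD, n = 3 each). Hspb8 lies on chromosome 5 (116408491 to 116422864, GRCm38.p6), whose 605 genes above background had a median log2 change of -0.098. With that median subtracted the difference was -3.28.

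**Figure D2:**
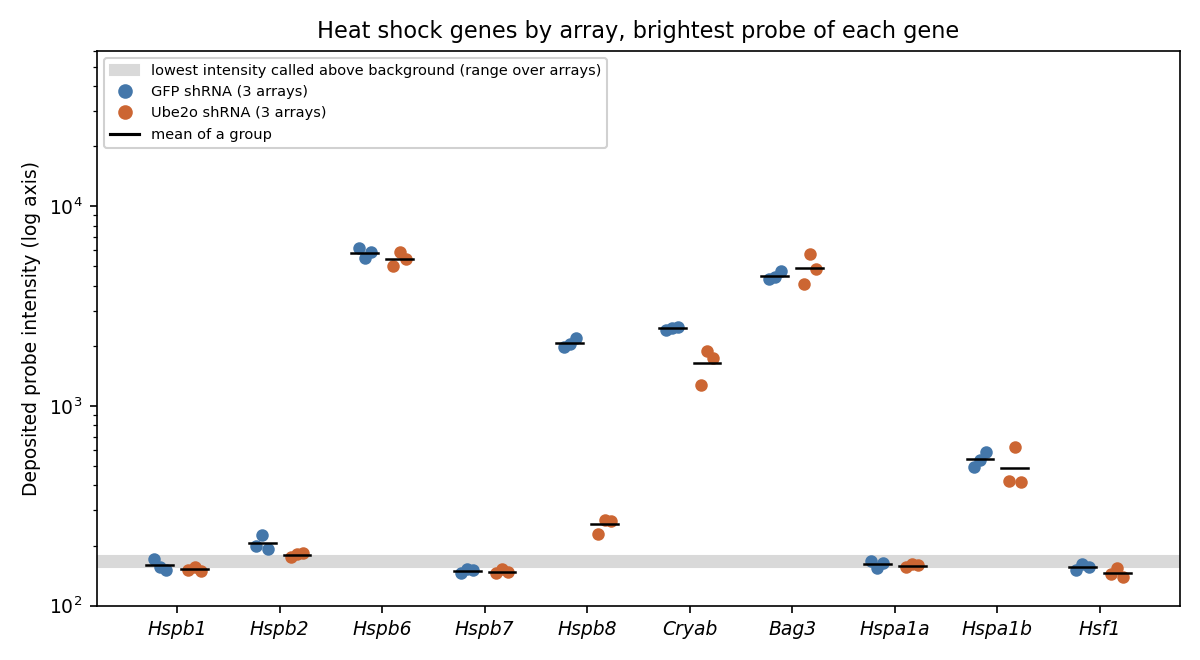
Deposited intensity (log axis) of the brightest probe of each of the 10 genes, with a point per array and a bar at the group mean. The grey band is the range over arrays of the lowest intensity called above background. Hspb8 goes from 1975 to 2194 with GFP shRNA to 229 to 270 with Ube2o shRNA, while Bag3 and Hspb6 overlap on this scale.

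Of the other small heat shock protein genes, Cryab was lower, Hspb6 overlapped between the groups, and the remaining ones were dim. Cryab encodes alphaB-crystallin, a chaperone of the lens and of muscle. Its probe gave 2408, 2452 and 2482 with GFP shRNA and 1268, 1894 and 1734 with Ube2o shRNA. All knockdown arrays lay below all controls, with Ube2o shRNA replicate 1 the lowest. The log2 means were 11.16 ± 0.070 and 10.65 ± 0.15 (SD, n = 3 each), a difference of -0.51 (SE 0.093), or 1.42-fold. Without that lowest array the difference was -0.43.

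Hspb6, which encodes the HSP20 protein of smooth and cardiac muscle, was bright on every array. It gave 6166, 5519 and 5866 with GFP shRNA and 5046, 5864 and 5422 with Ube2o shRNA. The groups overlapped, with log2 means of 12.44 ± 0.089 and 12.46 ± 0.080 (SD, n = 3 each) and a difference of 0.018 (SE 0.069). The sign of that difference turned to -0.085 with median scaling.

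Hspb2, a muscle small heat shock protein gene that lies beside Cryab on chromosome 9, was close to background. It gave 199, 226 and 191 with GFP shRNA and 175, 181 and 184 with Ube2o shRNA, above background on all 6 arrays. The knockdown arrays were lower than the controls on the deposited scale but overlapped them after normalization, where the difference was -0.20 (SE 0.16).

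Hspb1, encoding the actin-associated protein HSP25 of the mouse, and Hspb7, a cardiac small heat shock protein gene, gave no signal above background. The brighter Hspb1 probe ranged from 151 to 170 with GFP shRNA and from 150 to 157 with Ube2o shRNA, the dimmer one from 141 to 156 and from 140 to 153. For Hspb7 the ranges were 145 to 153 and 145 to 153. No fold is given for these genes, since both groups were below background on all arrays, and the probes cannot show whether they are expressed.

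Bag3, the scaffold that links HSPB8 to HSP70, did not share the lower signal of Hspb8. Its 1 probe gave 4327, 4430 and 4722 with GFP shRNA and 4085, 5777 and 4852 with Ube2o shRNA. These overlapped as deposited. After normalization the knockdown arrays were all slightly above the controls, with log2 means of 12.06 ± 0.006 and 12.28 ± 0.077 (SD, n = 3 each) and a difference of 0.21 (SE 0.045), or 1.16-fold higher. With median scaling the difference was 0.14 and the groups overlapped.

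The inducible HSP70 genes Hspa1a and Hspa1b are near-identical copies, side by side on chromosome 17, and a probe for one may also capture the other. The brighter Hspa1b probe gave 496, 537 and 587 with GFP shRNA and 422, 626 and 415 with Ube2o shRNA. The knockdown arrays spread on both sides of the controls, with SDs of 0.27 against 0.025 on the log2 scale (n = 3 each) and a difference of -0.096 (SE 0.16). Without Ube2o shRNA replicate 2, the highest array, it was -0.23, and without Ube2o shRNA replicate 3 it was 0.039. The dimmer Hspa1b probe gave 182 to 195 and 151 to 185, a difference of -0.19 (SE 0.11). Of the 3 Hspa1a probes, 2 were above background on 0 of 6 arrays and 1 on 1 of 6, with deposited intensities between 136 and 172.

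The Hsf1 probe was not above background on any array. It gave 151, 161 and 156 with GFP shRNA and 145, 154 and 139 with Ube2o shRNA. Its level therefore could not be compared between the groups.

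**Figure D3:**
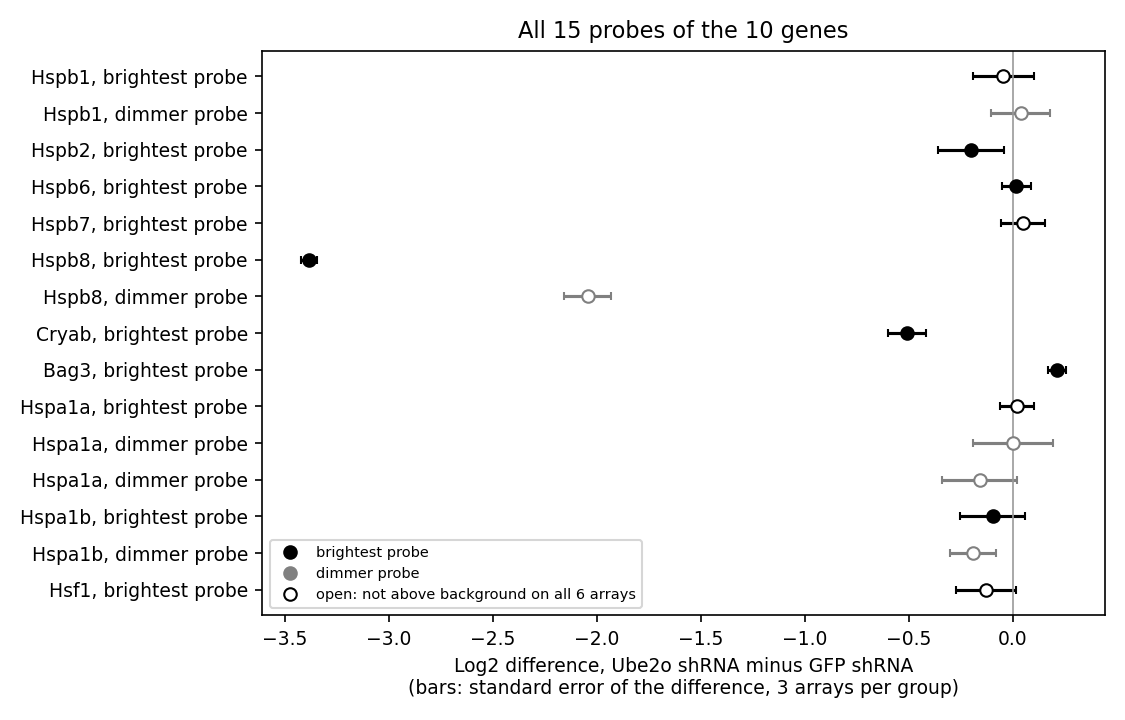
Log2 difference between Ube2o shRNA and GFP shRNA for all 15 probes of the 10 genes, after background correction and quantile normalization, with the standard error of the difference (3 arrays per group). The brightest Hspb8 probe lies at -3.38, its dimmer probe is open because the knockdown values were below background and stands only for a bound of at least 3.60-fold lower, Cryab lies at -0.51, and all other probes lie between -0.20 and 0.21.

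Among the 10 members by their brightest probe, 6 were above background on all 6 arrays and 4 on none. The groups did not overlap for 3 members, lower for Hspb8 and Cryab and higher for Bag3, the last only without median scaling. Over all genes by their brightest probe, 25.6% had groups that did not overlap (12.9% lower), and nothing is read from the members' count, since the set was chosen on this contrast. The median log2 difference was -0.070 over the 10 members and -0.15 over the 6 above background, against 0.002 over all genes and 0.010 over the genes above background on all arrays. Nothing is read from these medians either, for the same reason, and the first includes the 4 members above background on no array. Hspb8 and Cryab had knockdown arrays below all controls in the reported setting and in each of 13 alternatives, and Bag3 had them above in 13 of these 14 settings. Many of these settings could hardly differ. The replicate block and the filter on dim probes keep the same values. Leaving out an array keeps separated groups apart unless the new normalization moves them. Nothing is read from this tally.

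**Figure D4:**
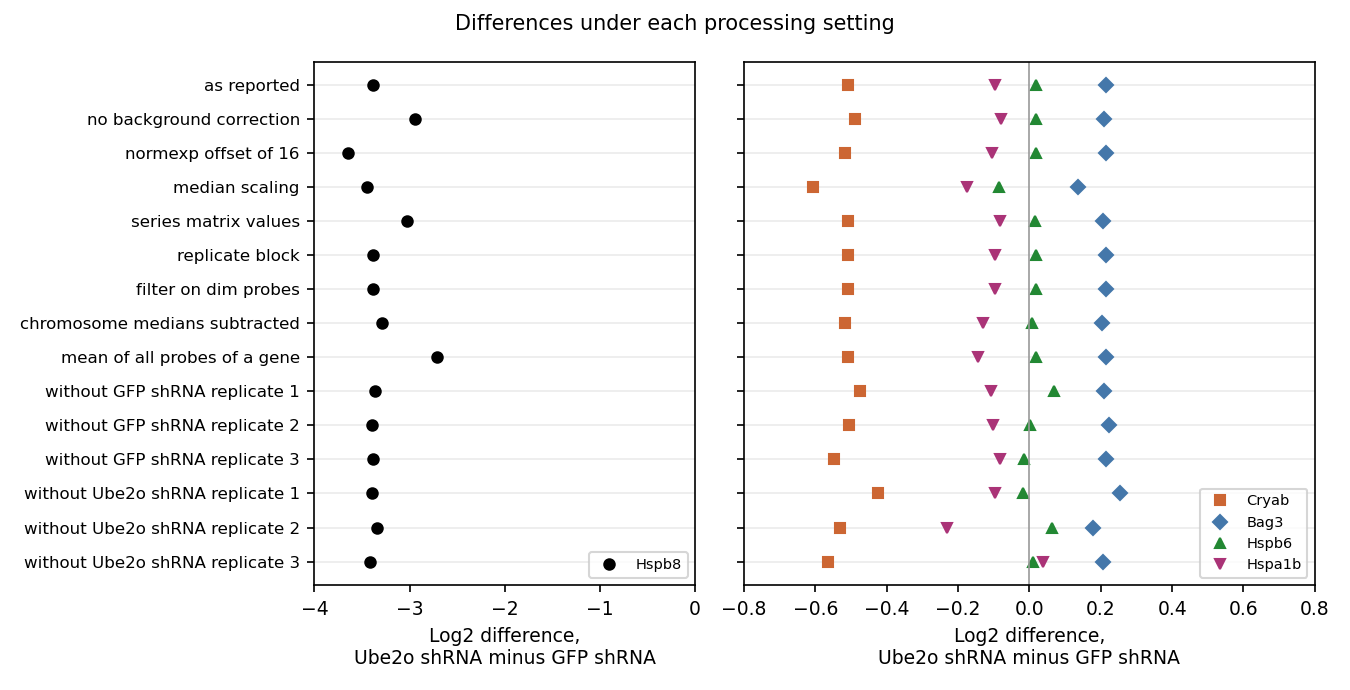
Log2 difference for Hspb8 (left) and for Cryab, Bag3, Hspb6 and Hspa1b (right) in the reported setting and under each alternative, including each array left out. Hspb8 lies between -3.65 and -2.71, Cryab between -0.61 and -0.43 and Bag3 between 0.14 and 0.25, while Hspb6 and Hspa1b fall on both sides of 0.

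Among the listed genes outside the members, log2 changes by the brightest probe ran from -0.65 (Des) to 0.55 (Ahsa1). Hspb8, at -3.38, lay outside this range, but the set was proposed with that difference known, so nothing is read from its place. In 10 lists of chaperone families, BAG3 partners, HSF1 targets and cytoskeletal clients, 151 of 161 genes were measured and 121 of them lay above background on all arrays. By limma with adjustment over all probes, 3 rose (Ahsa1, Dnajc16 and Nes) and 4 fell (Des, Bag4, Hdac6 and Dnajc21), which is 4.64% of the measured genes, against 6.88% of all genes by their brightest probe (2.92% higher and 3.96% lower) and 4.94% of all probes. All 7 lay above background on all arrays, which makes 5.79% of the 121, against 13% of all genes above background on all arrays. An unadjusted p under 0.05 was reached by 39 of the 151 (25.8%), with 21 higher and 18 lower, against 19.9% of all genes. Among those above background on all arrays the shares were 28.1% of the 121 and 32% of all genes. With median scaling 2 rose and 6 fell. The count of 7 depended on the processing: 30 passed with no background correction (17 higher, 13 lower), 28 in the deposited log2 values and 1 with the offset lowered from 50 to 16, and 2 to 5 passed when 1 array was left out. The median log2 change over the 151 genes was 0.013. Of 126 dimmer probes of these genes 8 passed, all higher, in 5 genes whose brightest probe did not pass: 3 of the actin gene Acta2 (0.58 to 0.70), 2 of the lamin gene Lmna (0.49 and 0.71) and 1 each of Cdc37l1 (0.78), Hsp90aa1 (0.46) and Wwtr1 (0.59, its brightest probe at -0.36). These 5 genes were named after their values were seen.

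**Figure D5:**
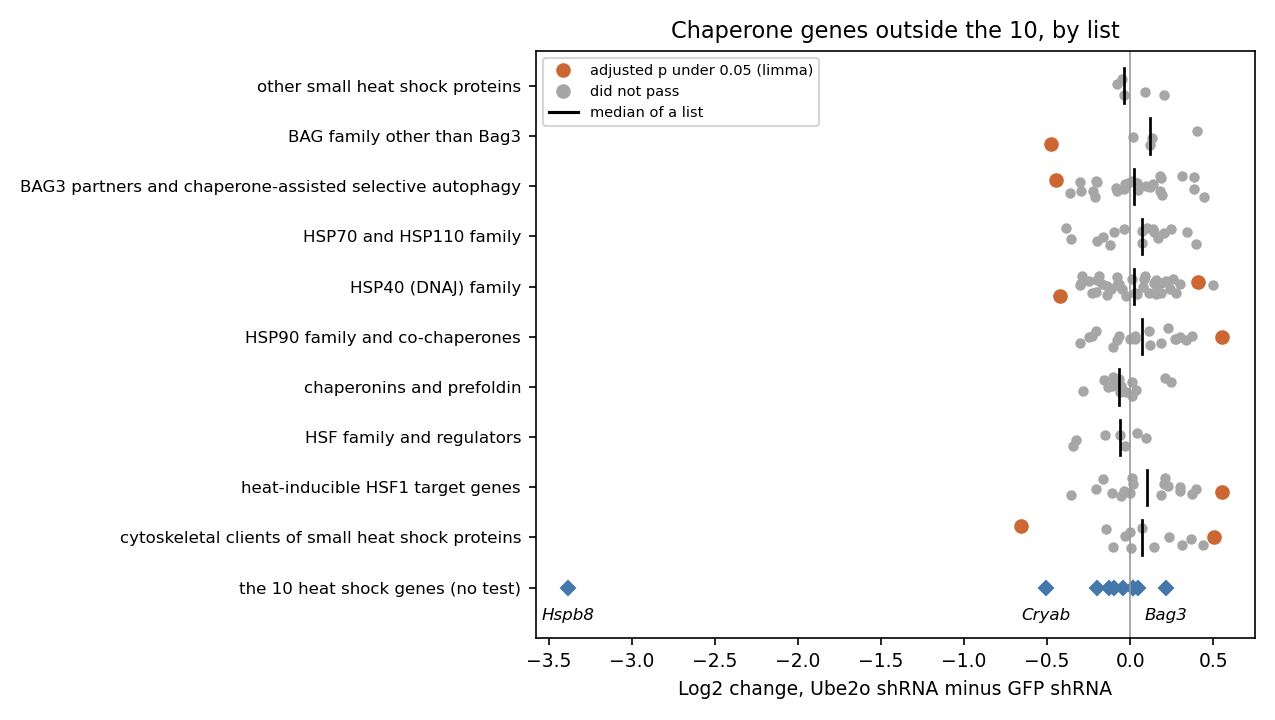
Log2 change (Ube2o shRNA minus GFP shRNA) of every measured gene of the 10 lists, with genes past an adjusted p of 0.05 in orange and the list median as a bar, above the 10 heat shock genes (blue diamonds, no test). By the brightest probe the genes of the lists lie between -0.65 (Des) and 0.55, and Hspb8, whose difference was known when the set was proposed, lies at -3.38.

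Other genes listed by name with the small heat shock proteins gave little signal. None of 5 (Hspb3, Hspb9, Hspb11, Cryaa and Odf1) was above background on all arrays, and 0 rose and 0 fell in limma, with 0 at an unadjusted p under 0.05. Hspb3, a muscle member of the family, had the smallest p (log2 change 0.21, SE 0.13, adjusted p = 0.503). In the BAG family, whose members bind HSP70 through a shared domain, 1 of 5 fell and 0 rose. Bag4, also known as a silencer of death domain receptors, gave 1135, 1346 and 1328 with GFP shRNA and 708, 1028 and 891 with Ube2o shRNA. Its knockdown arrays were all lower (log2 change -0.48, SE 0.11, limma adjusted p = 0.0183). The dimmer Bag4 probe had a log2 change of 0.049 and did not pass, and leaving out either GFP shRNA replicate 2 or Ube2o shRNA replicate 1 ended the call. With its probes averaged the Bag4 change was -0.21 (limma adjusted p = 0.337), and with the offset of 16 its adjusted p was 0.141. The other members Bag1, Bag2, Bag5 and Bag6 did not pass.

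BAG3 partners and genes of chaperone-assisted selective autophagy held 1 fall and 0 rises among 28 measured. This was Hdac6, the cytoplasmic deacetylase that carries ubiquitinated proteins to aggresomes, with 348, 363 and 365 with GFP shRNA and 231, 299 and 279 with Ube2o shRNA. The knockdown arrays were all lower (log2 change -0.45, SE 0.11, limma adjusted p = 0.0245). Hdac6 lies on the X chromosome, whose genes had a median log2 change of -0.20, and with that median subtracted its adjusted p was 0.249. Its call also needed every array except GFP shRNA replicate 3.

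The core partners of the HSPB8-BAG3 complex, singled out after their values were seen, did not pass. Hspa8, the constitutive HSP70, ranged from 20814 to 23982 with GFP shRNA and from 18946 to 22202 with Ube2o shRNA (log2 change -0.034, SE 0.12, limma adjusted p = 0.935). Stub1, which encodes the ligase CHIP, ranged from 1076 to 1220 and from 983 to 1306 (log2 change 0.097, SE 0.12). For Sqstm1, the autophagy receptor p62, the ranges were 4136 to 4404 and 3310 to 3989 (log2 change -0.083, SE 0.11). The deposited values overlapped for Hspa8 and Stub1 and did not for Sqstm1.

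Of 17 genes of the HSP70 and HSP110 family outside the members, 0 rose and 0 fell in limma, while 4 had an unadjusted p under 0.05, 2 in each direction. Hspa12b, an endothelial HSP70 relative, had the smallest p (log2 change -0.39, SE 0.12, adjusted p = 0.0699). In the DNAJ family of HSP70 co-chaperones, 1 of 40 rose and 1 fell. Dnajc16 gave 405, 416 and 450 with GFP shRNA and 447, 594 and 482 with Ube2o shRNA, which gave a log2 change of 0.41 (SE 0.11, limma adjusted p = 0.0420). It passed in 3 of 14 alternatives, and the call was lost when any array was left out, with the replicate block (adjusted p = 0.0613), with median scaling (adjusted p = 0.188), with its probes averaged (adjusted p = 0.107), with the offset of 16 (adjusted p = 0.168) and with the median of chromosome 4 subtracted (adjusted p = 0.240). Dnajc21, which acts in ribosome maturation, gave 2277, 2568 and 2766 and then 1544, 2117 and 1679, a log2 change of -0.42 (SE 0.11, adjusted p = 0.0325). With the median of chromosome 15 subtracted its adjusted p was 0.139, and the call needed every array except Ube2o shRNA replicate 2. The dimmer Dnajc21 probe had a log2 change of -0.059 and did not pass, and the mean of both probes had an adjusted p of 0.189.

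Among 20 HSP90 genes and co-chaperones 1 rose and 0 fell, and among 18 heat-inducible HSF1 target genes the same gene rose and 0 fell. Ahsa1, which encodes the activator of the HSP90 ATPase, gave 1049, 1260 and 1417 with GFP shRNA and 1456, 1637 and 1848 with Ube2o shRNA. All knockdown arrays were higher (log2 change 0.55, SE 0.13, limma adjusted p = 0.0129). Ahsa1 lies on chromosome 12, whose genes had a median log2 change of 0.28, and with that median subtracted its change was 0.27 (adjusted p = 0.265). Leaving out either GFP shRNA replicate 1 or Ube2o shRNA replicate 3 also ended the call. The HSF1 targets had a median log2 change of 0.10, and 6 of 18 had an unadjusted p under 0.05, 5 of them higher. Of the 18 targets, 17 lay above background on all arrays. Such a p was reached by 19.9% of all genes and by 32% of those above background on all arrays, so nothing is read from this count. The 5 higher targets were named after their values were seen. Ahsa1 and Hsp90aa1 lie on chromosome 12 and Stip1 on chromosome 19 (median log2 change 0.23), while Dnajb1 and P4ha1 lie on chromosomes 8 and 10 (medians of 0.019 and -0.006).

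Chaperonins and prefoldin (16 measured) and the HSF family with its regulators (7 measured) had 0 rises and 0 falls in limma, with 1 and 2 genes at an unadjusted p under 0.05, all lower. The smallest p in the first was that of Vbp1, a prefoldin subunit gene on the X chromosome (log2 change -0.28, SE 0.11, adjusted p = 0.198). In the second it was that of Hsf2bp, which was not above background on any array.

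Cytoskeletal clients of small heat shock proteins had 1 fall and 1 rise among 13 measured. An unadjusted p under 0.05 was reached by 5 of the 13, with 4 higher and 1 lower. Such a p was reached by 19.9% of all genes and 32% of those above background on all arrays, so nothing is read from this count. The dimmer probes of Acta2 and Lmna that passed, all higher, also belong to this list. Des, encoding the muscle intermediate filament desmin, a client of alphaB-crystallin, gave 299, 296 and 336 with GFP shRNA and 199, 227 and 215 with Ube2o shRNA. The groups did not overlap (log2 change -0.65, SE 0.11, limma adjusted p = 0.00125), and Des passed in all 14 alternatives. Des also belongs to the smooth muscle markers, of which Tagln and Smtn rose. Nes, encoding nestin, another intermediate filament protein, gave 235, 186 and 226 and then 254, 274 and 250, and its log2 change was 0.51 (SE 0.14, adjusted p = 0.0408). The dimmer Nes probe had a change of 0.062 and did not pass. The call of Nes held without GFP shRNA replicate 1 and was lost when any other array was left out. It was also lost with its probes averaged (limma adjusted p = 0.158) and with the offset of 16 (adjusted p = 0.200).

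The genes whose profile over the 6 arrays lay nearest to that of Hspb8 were found by the root mean square distance between centred log2 values. They were C3 (distance 0.087), Zfp518b (0.12), Igf2 (0.16), Slpi (0.29) and Stc1 (0.32). C3, a complement component gene, gave 5870, 6317 and 6905 with GFP shRNA and 563, 670 and 594 with Ube2o shRNA. Igf2, an imprinted growth factor gene, gave 1996, 2225 and 1951 and then 239, 293 and 236. Since they were picked for closeness to Hspb8, the similar size of their differences follows from the choice. Zfp518b was above background on 1 of 3 Ube2o shRNA arrays, so no size is given for it. It lies on chromosome 5 as Hspb8 does, while the other 4 lie on chromosomes 2, 7, 14 and 17.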

How the data were processed

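Per the labels' protocols, an RNeasy kit was used for extraction and the Illumina TotalPrep kit for biotin labelling. The authors deposited probe intensity on a linear scale, not normalized between arrays, and a matrix of log2 values that the values show to be quantile normalized (sorted values equal within 0.001). Scanner software, and how the log2 values were made, is not given in the sources used here. Intensity was corrected with normexp (offset 50, which compresses changes of dim genes), quantile normalized and taken to log2, and all 45281 probes were tested with limma 3.58.1 in R 4.3.3 (two-sided, Benjamini-Hochberg over all probes, threshold 0.05). Detection p-values were not used here; background was inferred from the mode of each array's log2 signal and the spread below it. Cultures are not described further, so p-values reflect array-to-array spread, possibly technical.

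Probes were named from the platform annotation, with symbols updated from RefSeq (GRCm38.p6), which left 9497 probes unnamed and gave 35784 a single symbol (0 with several). The brightest probe stands for its gene. The members and lists were chosen with earlier results of these data known. Named genes are the members, Ube2o, up to 6 called genes per list (or that with the smallest p) and the 5 profiles nearest to Hspb8, predicted models left out. The test and the background call were tested on simulated data, and the motif search on a short made sequence. Alternatives covered background correction, scaling, the deposited log2 values, the replicate block, each array left out, a filter on dim probes (above background on at least 3 arrays), the mean of a gene's probes and, added after the data were examined, subtraction of chromosome medians.

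Same-numbered arrays of both groups did not deviate together: the correlations of their deviations from the group means were 0.034, -0.11 and 0.089, so the numbers were not taken as pairs.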

Additional observations from a re-analysis of the deposited data

How the results depend on the processing

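The Hspb8 difference of -3.38 kept its direction throughout: it was -2.94 with no background correction, -3.03 in the deposited log2 values, -2.71 with its probes averaged, -3.28 with chromosome medians subtracted, -3.45 with median scaling and -3.65 with the offset of 16, and lay between -3.42 and -3.34 when any 1 array was left out. Calls depended more on the setting. Against 2236 probes as reported (1019 higher and 1217 lower), 3966 passed with no background correction, 3941 in the deposited log2 values, 3452 with the filter on dim probes and 584 with the offset of 16, and 1445 to 1682 with 1 array left out, the lowest without GFP shRNA replicate 1. With median scaling 567 were higher and 1544 lower. Against 7 genes of the 10 lists outside the members, 30 passed with no background correction, 28 in the deposited log2 values, 21 with the filter, 4 with chromosome medians subtracted and 1 with the offset of 16, and 2 to 5 with 1 array left out, the 2 without Ube2o shRNA replicate 1. The replicate block gave 2139 probes and 6 genes of the lists. It left the Hspb8 difference at -3.38, as it must when each replicate number occurs once in each group. Not every array deviated most like the array with its own number. Signs of the Hspb6, Hspa1a, Hspa1b, Hspb1 and Hspb7 differences, all small, turned in some settings. Members not above background had no value under the filter on dim probes. The cause of these shifts was not tested. Signal over background limits the dim members: Hspb1, Hspb7, Hspa1a and Hsf1 could not be compared.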
